A study of Mus musculus with 12 samples.

Results

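BMP4 and TGFB2, 2 ligands of one growth factor family, were compared directly in mouse PYMT cells, a tumour cell line that carries the name of the polyoma middle T mammary model. The comparison took the 3 libraries of cells given BMP4 and the 3 libraries of cells given TGFB2, which are 6 of the 12 libraries in the study. It asks which genes separate the ligands, and which of them the ligands moved in opposite directions from the cells labelled NT, which were also grown in 3 libraries. A further 3 libraries came from cells given BMP4 and TGFB2 together. All cells were cultured in matrigel, a basement membrane gel. Ligands were given at 5 ng/mL for 3 days, the medium was then changed, and the cells were taken from the gel 2 days later. The levels therefore describe cells 2 days after the ligand-containing medium was replaced. Every group used the same cell line. The replicates are called biological in the labels, without further detail, and the p-values therefore reflect only how far these particular cultures varied.

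These ligands bind pairs of serine/threonine kinase receptors, which phosphorylate SMAD proteins that then enter the nucleus with SMAD4. TGFB2 acts mainly through SMAD2 and SMAD3, and BMP4 through SMAD1, SMAD5 and SMAD9. In mammary epithelium, TGF-beta ligands are known for restraining growth and for inducing matrix production and epithelial-mesenchymal transition. BMP ligands are known for inducing the Id genes and for their part in duct formation and lineage choice. Both ligands have been linked to dormancy of disseminated tumour cells, the subject of the study.

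The 6 libraries held 30387900 to 42167800 estimated counts each. Correlations of log2 levels across genes were 0.96 to 0.974 within a ligand and 0.93 to 0.96 between ligands. The first principal component of the 6 libraries, with 44.1% of the variance, split the ligands, while the second (23.8%) put the 3 replicate numbers in one order for BMP4 and for TGFB2. Same-numbered libraries were treated as paired. Summed levels of 10 mammary epithelial markers overlapped, at 6080 to 6880 CPM (counts scaled to a common library total) with BMP4 and 6180 to 6670 CPM with TGFB2. The luminal keratins Krt8 and Krt18, Epcam and Cdh1 were abundant, as the labelled cell type has it. Of the basal keratins, Krt5 reached at most 1.21 CPM in the 6, whereas Krt14 had 1120, 1300 and 990 CPM with BMP4 and 497, 569 and 334 CPM with TGFB2, higher with BMP4 (adjusted p = 0.0234). Transcripts encoded by mitochondria took 1.4% to 1.76% of counts with BMP4 and 1.84% to 2.95% with TGFB2.

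BMP4 and TGFB2 separated 2999 of 15319 genes tested (19.6%), at a Benjamini-Hochberg adjusted p under 0.05 in the quasi-likelihood test of edgeR with the replicate number as a block. Of these, 1537 were higher with BMP4 (10% of genes tested) and 1462 were higher with TGFB2 (9.54%). A difference of at least 1 on the log2 scale was seen for 667 genes higher with BMP4 and 531 higher with TGFB2, together 7.82% of genes tested. Large differences of at least 3 log2 units numbered 142 and 96. Every BMP4 library lay above every TGFB2 library for 1984 genes (13%) and below for 2016 genes (13.2%). Without the replicate block 1200 genes passed, 638 higher with BMP4 and 562 higher with TGFB2. The number that passed was 1737 without TGFB2 replicate 1, 1845 without TGFB2 replicate 3, 1706 without BMP4 replicate 1 and 1893 without BMP4 replicate 2. Scaling by library totals alone left 2998 genes but moved the share higher with BMP4 from 51.3% to 44.2%, with a median shift of -0.042 log2 units over all genes.

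**Figure D1:**
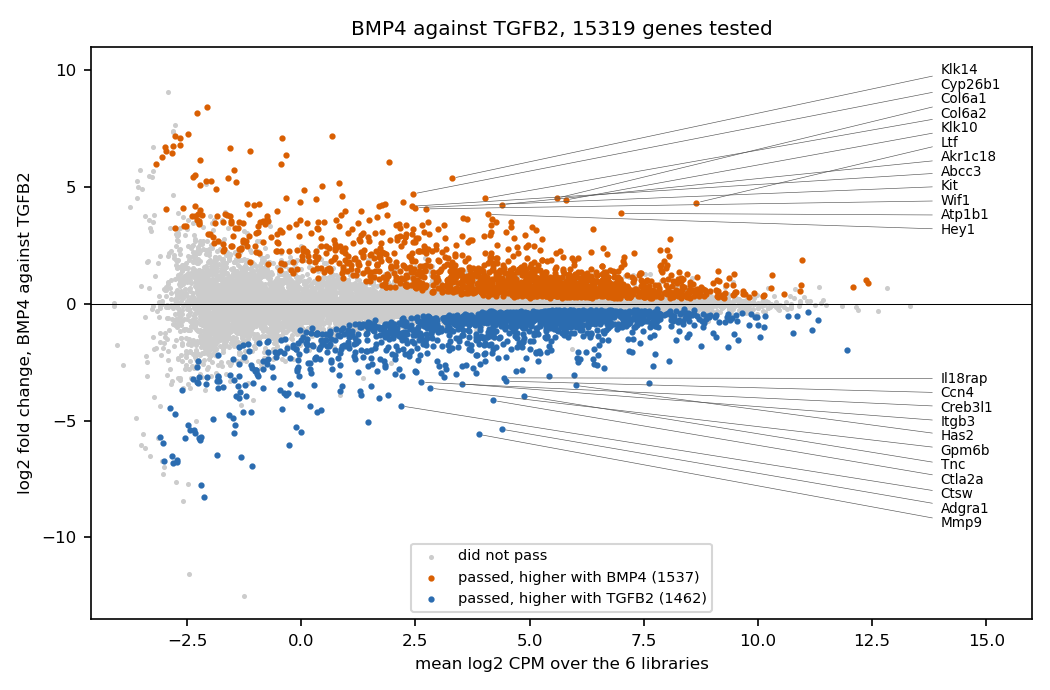
Each point is a gene, with its mean log2 CPM over the 6 libraries on the horizontal axis and its log2 fold change, BMP4 against TGFB2, on the vertical axis; orange points passed and were higher with BMP4 (1537), blue points passed and were higher with TGFB2 (1462), grey points did not pass. The labelled genes, 12 higher with BMP4 and 11 higher with TGFB2, have the largest differences among genes above the level minimum of 2 on the horizontal axis, from Klk14 (5.38) at the top to Mmp9 (-5.59) at the bottom.

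The genes furthest up with BMP4 included a pair of kallikreins, 2 collagen VI chains, the milk protein lactoferrin and the retinoic acid-degrading enzyme Cyp26b1. All log2 fold changes below are BMP4 against TGFB2 unless stated, with SE after ±, and library values are CPM of replicates 1, 2 and 3. Klk14, a secreted serine protease (ENSMUSG00000044737.6, chromosome 7, 43690418 to 43695536 on GRCm38), measured 111, 63.5 and 32.5 CPM with BMP4 and 1.11, 2.66 and 1.19 CPM with TGFB2. The groups were far apart, with the lowest BMP4 library well above the highest TGFB2 library. Its log2 fold change was 5.38 ± 0.47 (adjusted p = 7.38e-05). NT libraries had 97.9, 119 and 131 CPM, so this difference was a loss with TGFB2 (-6.21 against NT) with no passing change with BMP4 (-0.83, adjusted p = 0.169). The related Klk10 had 228, 283 and 258 CPM with BMP4 and 8.16, 15.2 and 13.9 CPM with TGFB2, a log2 fold change of 4.45 ± 0.38.

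Collagen VI chains were gained with BMP4. Col6a1 (ENSMUSG00000001119.7, chromosome 10, 76708792 to 76726168), a chain of a filament-forming collagen, stood at 326, 303 and 124 CPM with BMP4, 5.72, 15.8 and 11.9 CPM with TGFB2, and 7.97, 5.58 and 10.1 CPM in NT. Only the BMP4 libraries were high, and replicate 3 was the lowest of them. The log2 fold change was 4.53 ± 0.52 (adjusted p = 0.000301), with 4.92 for BMP4 against NT and 0.39 for TGFB2 against NT (adjusted p = 0.562). Its neighbour Col6a2 (chromosome 10, 76595762 to 76623630) followed the same order, at 105, 99.7 and 43.9 CPM with BMP4 and 1.54, 5.87 and 4.16 CPM with TGFB2 (4.52 ± 0.63). Another chain, Col6a3, looked up after these values were seen, did not pass (-0.49, adjusted p = 0.609).

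Cyp26b1, which clears retinoic acid, had the same shape. It reached 34.9, 27.4 and 24.8 CPM with BMP4, against 1.14, 0.417 and 1.88 CPM with TGFB2 and 1.07, 0.765 and 2.46 CPM in NT (4.71 ± 0.59, adjusted p = 0.000509). The remaining genes of this group were mostly lowered by TGFB2 or split between the ligands. Ltf, the iron-binding milk protein lactoferrin, measured 2290, 2170 and 1180 CPM with BMP4 and 75.9, 96.3 and 100 CPM with TGFB2 (4.33 ± 0.34, adjusted p = 4.79e-05). In NT its lowest library was 7050 CPM, so both ligands lowered it, by 2.45 log2 units with BMP4 and by 6.78 with TGFB2. Kit, a receptor of luminal progenitors (4.12), the secreted Wnt inhibitor Wif1 (4.07) and the sodium pump subunit Atp1b1 (3.88) fell with TGFB2 and did not pass with BMP4 against NT. Akr1c18, a progesterone-reducing enzyme (4.25), fell with TGFB2 (-2.26), while BMP4 against NT gave 2.00 with an adjusted p of 0.0611. Abcc3, an export pump (4.18), and Hey1, a repressor downstream of Notch and BMP signals (3.83), were moved in opposite directions and are described below.

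TGFB2 gave the higher level for a matrix protease, matrix glycoproteins and an integrin. Mmp9, a gelatinase (ENSMUSG00000017737.2, chromosome 2, 164940780 to 164955850), measured 59, 53 and 486 CPM with TGFB2 and 0.232, 1.74 and 12.9 CPM with BMP4. Replicate 3 was the highest library under each ligand, and the groups did not overlap. The log2 fold change was -5.59 ± 0.54 (adjusted p = 0.000112), but without the replicate block the adjusted p was 0.0502 with 12 libraries or 0.0904 with 6. Tnc, the matrix glycoprotein tenascin C, showed the same spread, at 53.4, 52 and 554 CPM with TGFB2 and 1.7, 4.62 and 48.7 CPM with BMP4 (-3.93 ± 0.57, adjusted p = 0.00124, and 0.184 to 0.218 without the block). Has2, a hyaluronan synthase (-3.50), also lost its call without the block (adjusted p 0.111 to 0.172).

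More even libraries were seen for Adgra1, an adhesion receptor of the G protein-coupled class (chromosome 7, 139834174 to 139878088). It had 139, 149 and 157 CPM with TGFB2, 1.7, 1.36 and 10.3 CPM with BMP4 and at most 1.11 CPM in NT (-5.37 ± 0.51, adjusted p = 0.000106). Itgb3, the integrin beta 3 subunit, had 31.9, 28.9 and 56.9 CPM with TGFB2 and 2.57, 2.72 and 6.02 CPM with BMP4 (-3.43 ± 0.27). Both ligands raised Adgra1 and Itgb3 against NT, with TGFB2 values of 7.66 and 6.10 and BMP4 values of 2.29 and 2.67.

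The other genes of this group were Ctla2a, a cysteine protease inhibitor (-4.14), the membrane protein Gpm6b (-3.61), the secreted matricellular factor Ccn4 (-3.31) and the interleukin 18 receptor subunit Il18rap (-3.17). Ctsw, encoding a cathepsin (-4.37), shares exons with Fibp, whose CPM was 300% of its own, and Ctla2a shares exons with Gm49391 at 18.8%. Reads of such partners cannot be told apart by strand in unstranded libraries. Creb3l1, a transcription factor of the secretory pathway, differed in kind from the rest. It measured 19.4, 22.3 and 18.2 CPM with TGFB2, close to 20.5, 18.7 and 4.86 CPM in NT, and 2.34, 1.27 and 2.16 CPM with BMP4 (-3.36 ± 0.43). Here BMP4 lowered the gene (-2.81 against NT, adjusted p = 0.00226) and TGFB2 against NT did not pass (0.55, adjusted p = 0.294).

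**Figure D2:**
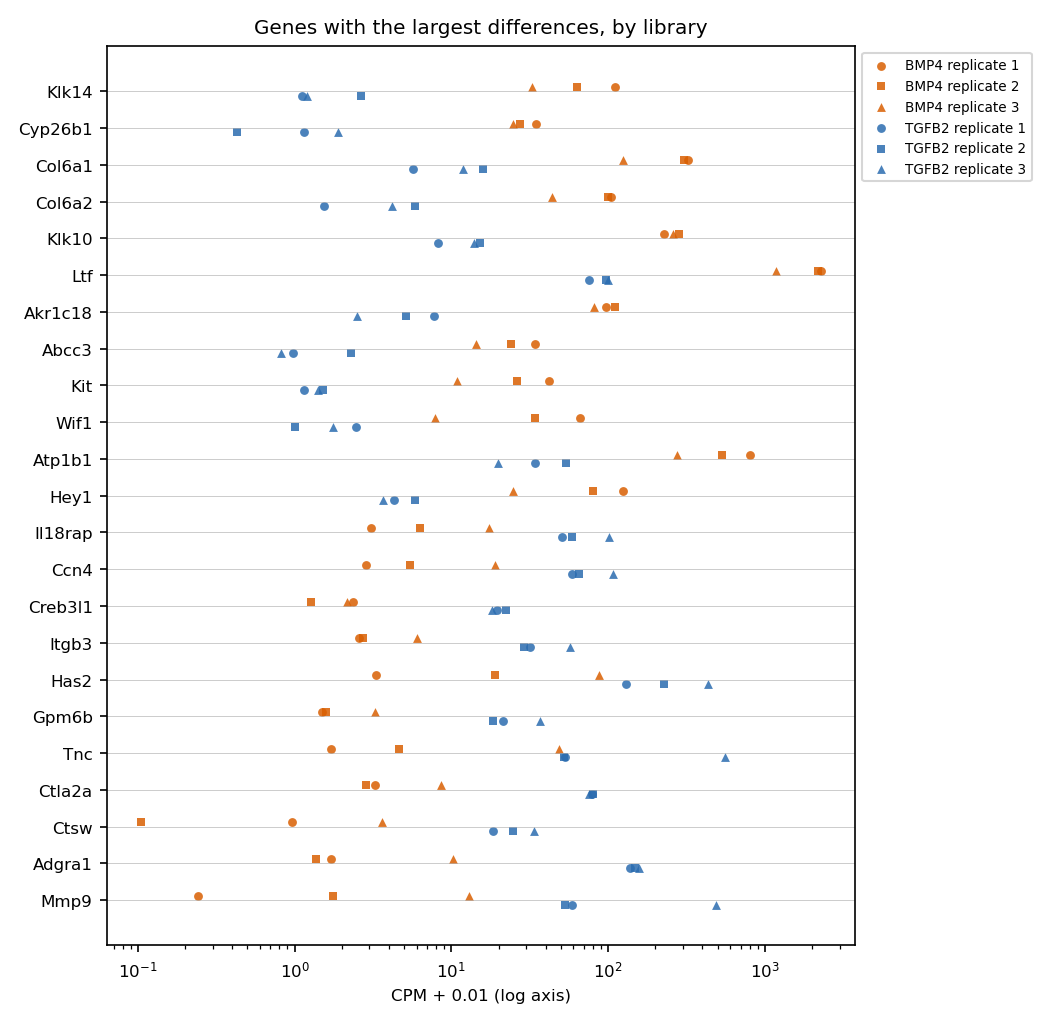
CPM (log axis, 0.01 added) of 23 genes with the largest differences, 1 row per gene, with orange symbols for BMP4 and blue symbols for TGFB2 libraries and 1 shape per replicate number. In every row the 3 libraries of one ligand lie above the 3 of the other, and Mmp9 and Tnc are spread most within a ligand, with TGFB2 replicate 3 at 486 and 554 CPM.

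The endogenous ligands of the family differed as well. Of 13 measured ligand genes, 4 were higher with BMP4 and 2 higher with TGFB2, beside 10% and 9.54% of genes tested. Bmp2 stood at 13.2, 11.2 and 10.2 CPM with TGFB2 and 1.36, 1.01 and 2.1 CPM with BMP4 (-2.99 ± 0.29), and rose against NT with TGFB2 (3.69), while BMP4 against NT gave 0.70 (adjusted p = 0.158). Transcripts of Bmp4 itself measured 32.7, 24.2 and 14.9 CPM in the BMP4 libraries and 6.58, 8.14 and 4.6 CPM in the TGFB2 libraries (1.85 ± 0.33), having risen with BMP4 (1.95). Tgfb2 transcripts fell in the TGFB2 libraries, at 9.2, 9.04 and 5.54 CPM, from 24.9 to 32 CPM in NT, and were 26.5, 26 and 14 CPM with BMP4 (1.47 ± 0.18). Tgfb3 was also lower with TGFB2 (0.68), a call lost without the block and with all replicate 2 libraries left out (adjusted p 0.0618 to 0.106). Without the block, 2 ligand genes were higher with BMP4 and 1 with TGFB2, and the TGFB2 count was also 1 without TGFB2 replicate 2 or 3 or BMP4 replicate 2 or 3.

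Receptor genes passed at about the share of all genes tested (10% higher with BMP4 and 9.54% higher with TGFB2). Of 13 measured, 2 were higher with BMP4: Tgfbr2, the type II receptor for TGF-beta ligands (0.63 ± 0.09, adjusted p = 0.000904), and the BMP co-receptor Rgma (0.80), whose call was lost with the 6 libraries alone and no block (adjusted p = 0.0813). Acvrl1, a type I receptor, was higher with TGFB2 (-0.99), a call that 16 of the alternatives lost, and at most 3.79 CPM. Tgfbr2 had 138, 173 and 159 CPM with BMP4 and 93.6, 109 and 101 CPM with TGFB2, so the groups did not overlap, and it fell against NT with TGFB2 (-0.61), with 0.02 for BMP4 against NT. The co-receptor Eng did not pass (-1.01, adjusted p = 0.0506) and shares exons with the far more abundant Fpgs.

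Among the 8 SMAD genes, Smad6 and Smad9 were higher with BMP4, and Smad1 and Smad5, which carry the BMP signal, were higher with TGFB2. Smad6, an inhibitor of BMP signalling, measured 94.2, 69.1 and 60.7 CPM with BMP4, 26.4, 33 and 30 CPM with TGFB2 and 11.7, 7.14 and 13.1 CPM in NT (1.31 ± 0.24, adjusted p = 0.00393). Both ligands raised it, BMP4 by more. Smad9 had 6.87, 7.05 and 6.18 CPM with BMP4 and 0.71, 1.12 and 0.804 CPM with TGFB2 (2.93 ± 0.50). Smad1 (-0.58) and Smad5 (-0.57) each lost the call in 2 of the alternatives (adjusted p 0.0535 to 0.0714 and 0.0585 to 0.0701). Smad7, the inhibitor common to both branches, gave a difference of -0.06 ± 0.11 (adjusted p = 0.762), after similar gains with BMP4 (1.58) and TGFB2 (1.64). Of 15 measured antagonists and latent TGF-beta binders, 0 were higher with BMP4 and 3 higher with TGFB2, beside 10% and 9.54% of genes tested. The TGFB2 count was 1 without the block and without TGFB2 replicate 1, TGFB2 replicate 2 or BMP4 replicate 2. The activin antagonist Fstl3 stood out among the 3, with 80.4, 64.4 and 92.8 CPM against 18.5, 17.2 and 18.4 CPM (-2.12 ± 0.14). The other 2, Fstl1 (-1.53) and Bmper (-0.88), lost their calls in 9 and 14 of the alternatives. Fst, a related antagonist, did not pass (0.73, adjusted p = 0.0926).

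The response list of each ligand's own SMADs divided accordingly. Of 21 measured genes of the BMP SMAD1/5 response list, 12 were higher with BMP4 and 1 with TGFB2, with a median log2 fold change of 1.31 beside -0.0014 over all genes tested. Without the block the counts were 11 and 0. Against NT, 16 of the 21 rose with BMP4 (8.6% of genes tested) and 6 with TGFB2 (18.7%), while 0 and 3 fell. Id2, an inhibitor of basic helix-loop-helix factors (chromosome 12, 25093799 to 25097140), had 489, 390 and 360 CPM with BMP4, 140, 150 and 111 CPM with TGFB2 and 302 to 318 CPM in NT (1.62 ± 0.11, adjusted p = 2.85e-05). Id3 was at 448, 412 and 405 CPM with BMP4 and 88.7, 188 and 140 CPM with TGFB2 (1.66 ± 0.23). Id1 gave the smallest difference of the 3 (0.75 ± 0.15, adjusted p = 0.00734), a call that was lost with all replicate 1 or all replicate 3 libraries left out (adjusted p 0.0606 to 0.0732). The transcription factor genes Atoh8 (3.62) and Hey1 (3.83) had larger differences and are given below. The homeobox genes Dlx2 (3.17), Dlx3 (3.45) and Dlx5 (2.65), picked out after their values were seen, also rose with BMP4 and did not pass with TGFB2 against NT. The member higher with TGFB2 was Bmper, a BMP-binding protein.

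Of 31 measured genes of the TGFb SMAD2/3 response list, 18 were higher with TGFB2 and 2 with BMP4, with a median of -0.72. Without the block, 11 were higher with TGFB2 and 0 with BMP4. Jag1, a Notch ligand, had 284, 152 and 388 CPM with TGFB2 and 36.8, 26.5 and 54.9 CPM with BMP4 (-2.77 ± 0.20). Nuak1, a kinase of the AMPK family (-2.02 ± 0.16), and the circadian repressor Bhlhe40 (-1.40 ± 0.13) were likewise higher with TGFB2. Feedback genes of this branch differed less: Pmepa1 had 711, 785 and 749 CPM with TGFB2 and 481, 427 and 399 CPM with BMP4 (-0.79 ± 0.12), without overlap. Skil, a SMAD co-repressor, gave -0.47 ± 0.11, a call lost in 8 of the alternatives. BMP4 alone also raised Pmepa1 (1.46), Nuak1 (1.71) and Jag1 (1.77) against NT, so these genes separated the ligands by degree and not by direction.

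A BMP-type SMAD motif was looked for in the RefSeq promoters, from 250 bases before to 50 after each gene start. The palindrome GGCGCC was present for 6 of the 13 matched members of the BMP list (46.2%), beside 23.8% of 11043 tested genes with an entry, and for 8 of the 22 matched members of the TGFb list (36.4%). CAGACA, the SMAD box, on both strands, was found for 7 of 22 matched members of the TGFb list (31.8%), beside 19.2%. Smad9 is shown because it was a member of the BMP list higher with BMP4 in every alternative and its window holds the palindrome, 51 bases before the gene start. The 200 bases before the start lie at chr3:54755382-54755581 on the plus strand of GRCm38.p6, with the motif in capitals.
Smad9: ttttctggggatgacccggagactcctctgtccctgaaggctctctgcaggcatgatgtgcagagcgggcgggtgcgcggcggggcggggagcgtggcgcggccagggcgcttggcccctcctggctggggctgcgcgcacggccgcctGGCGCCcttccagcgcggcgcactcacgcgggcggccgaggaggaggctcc
A match of these letters is a description and not a binding site.

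Opposite movement past the thresholds was rare, and genes with opposite changes that missed a threshold were not counted. Only 51 genes (0.333% of those tested) passed against NT with both ligands in opposite directions and also between the ligands, 41 of them raised by BMP4 and lowered by TGFB2 (0.268%) and 10 the reverse (0.0653%). BMP4 against NT had 2356 passing genes (15.4%) and TGFB2 against NT had 5799 (37.9%). Both use the same 3 NT libraries, so a deviation in NT moves both changes the same way and works against opposite calls. Without the block 14 genes met the rule. The number was 27 without NT replicate 2, 28 without TGFB2 replicate 1, 31 without TGFB2 replicate 3, 22 without BMP4 replicate 1 and 26 without BMP4 replicate 2. One gene, Acox2, met the rule in all 20 alternatives that give the count, and 32 of the 51 met it in 10 or more of them.

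Krt15, a keratin of basal and progenitor-like epithelial cells (ENSMUSG00000054146.8, chromosome 11, 100131758 to 100135928), spanned the widest range. It had 12.3, 26.5 and 13.3 CPM with BMP4, 0.47, 0.595 and 1.08 CPM in NT and 0.166, 0.0641 and 0.0832 CPM with TGFB2. The 3 groups formed 3 separate steps. BMP4 against NT gave 4.57 (adjusted p = 0.000186), TGFB2 against NT gave -2.62 (adjusted p = 0.00369) and the direct difference was 7.18 ± 0.51, although the TGFB2 values were close to 0. Slc26a7, an anion exchanger, had 12.7, 6.14 and 1.79 CPM with BMP4 and 0.0946, 0 and 0.139 CPM with TGFB2, against 0.967, 0.283 and 1.08 CPM in NT.

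Transcription factors were among the genes raised by BMP4 and lowered by TGFB2. Atoh8 (chromosome 6, 72206177 to 72235577), a basic helix-loop-helix factor, had 65.5, 68.1 and 60.6 CPM with BMP4, 19.9, 21.3 and 30.4 CPM in NT and 2.79, 9.14 and 4.91 CPM with TGFB2. These were again 3 steps with no overlap, of 1.44 up with BMP4 and -2.19 with TGFB2. Hey1 measured 124, 79.6 and 24.9 CPM with BMP4, 24.6, 9.32 and 9.03 CPM in NT and 4.28, 5.87 and 3.66 CPM with TGFB2. BMP4 replicate 3 lay next to NT replicate 1, so those 2 groups nearly met. Id2 met the rule with a small gain (0.41, adjusted p = 0.0297) and a larger loss (-1.22), in 11 of 20 alternatives.

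Other genes of this direction encode transporters, enzymes and epidermal proteins. Abcc3 stood at 34.3, 24.1 and 14.3 CPM with BMP4, 2.24 to 4.02 CPM in NT and 0.804 to 2.28 CPM with TGFB2. Cdsn, corneodesmosin of cornified epithelia, had 38.6, 28.7 and 6.43 CPM with BMP4 and 3.15, 1.7 and 1.39 CPM with TGFB2, and its lowest BMP4 library lay inside the NT range of 3.42 to 6.87 CPM. Dhrs9, a retinol dehydrogenase, gave 1.85 with BMP4 and -1.53 with TGFB2. Dlk2, a Notch-modulating protein (1.27 and -1.59), shares exons with Abcc10, whose CPM was 96.6% of its own.

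The 10 genes lowered by BMP4 and raised by TGFB2 included regulators, enzymes and transporters. Bhlhe41, a repressor of the clock and a gene tied to tumour dormancy (ENSMUSG00000030256.11, chromosome 6, 145858243 to 145865558), had 48, 28.4 and 33.3 CPM with BMP4, 94.5, 51.6 and 50.9 CPM in NT and 199, 246 and 217 CPM with TGFB2. TGFB2 raised it by 1.80 (adjusted p = 0.000201) and BMP4 lowered it by 0.83 (-0.83, adjusted p = 0.033), with a direct difference of -2.63 ± 0.24. The rule held for it in 12 of 20 alternatives, and the direct difference passed in all. Acox2, a peroxisomal oxidase of branched fatty acids and bile acid intermediates (chromosome 14, 8225511 to 8259353), had 20.1, 15.4 and 14 CPM with BMP4, 46.4, 35.9 and 27.6 CPM in NT and 65.4, 64 and 59.1 CPM with TGFB2. The 3 groups did not overlap, and the changes were -1.14 and 0.80.

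Smox, spermine oxidase, ran at 85.1, 79.7 and 89.2 CPM with BMP4, 172, 167 and 117 CPM in NT and 288, 231 and 206 CPM with TGFB2. Epn2, an endocytic adaptor, ran at 92.6, 98.3 and 110 CPM, 136 to 155 CPM and 207 to 244 CPM in the same order. Both held 3 separate levels and met the rule in 19 of 20 alternatives. Dram1, a p53-induced regulator of autophagy (-1.14 and 1.06), Tmem229b (-1.05 and 0.69), the peptide transporter Slc15a2 (-1.31 and 0.39) and Isoc1 (-0.42 and 0.37) completed the 8 named genes of this direction.

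**Figure D3:**
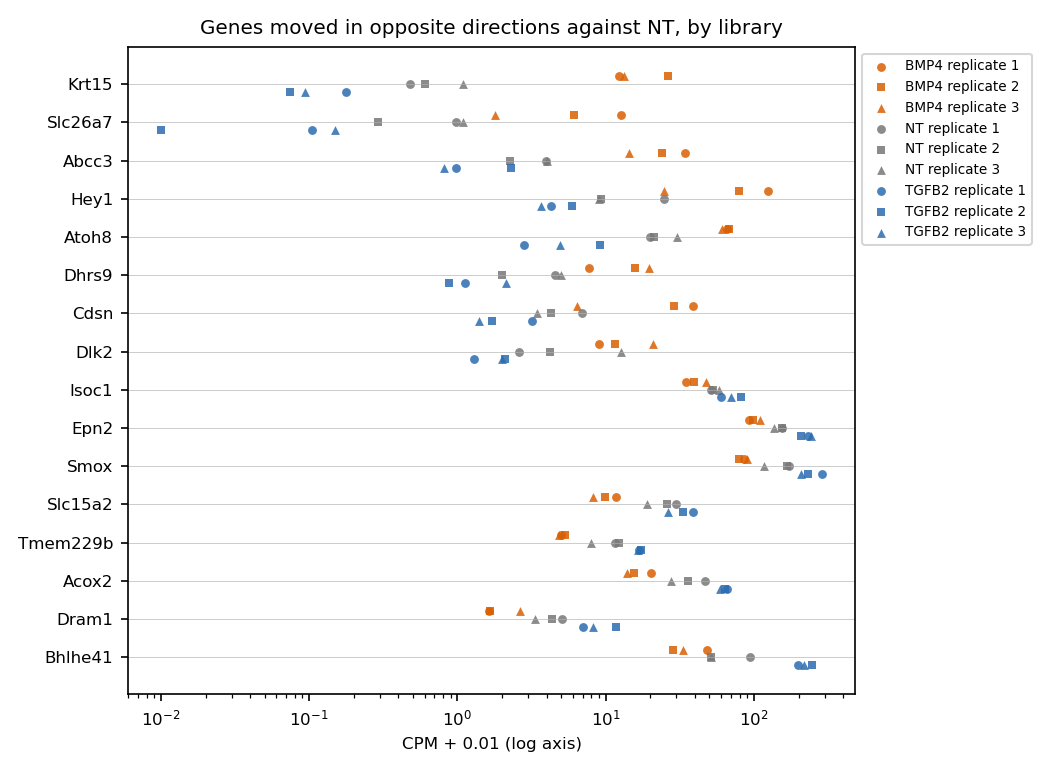
CPM (log axis, 0.01 added) of the 16 named genes moved in opposite directions, 1 row per gene, with orange for BMP4, grey for NT and blue for TGFB2 libraries and 1 shape per replicate number. The upper 8 rows are high with BMP4 and low with TGFB2 and the lower 8 the reverse, with the NT libraries in between or, as for Cdsn, partly overlapping a ligand; Bhlhe41, the lowest row, runs from 28.4 CPM with BMP4 to 246 CPM with TGFB2.

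Across the 31 gene lists the sides taken were uneven. Each list count between the ligands stands beside 10% of genes tested higher with BMP4 and 9.54% higher with TGFB2. Lists of interferon, cholesterol, milk and BMP response genes had their passing members mainly on the BMP4 side, and lists of collagen crosslinking, SMAD2/3 response and mesenchymal genes mainly on the TGFB2 side.

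**Figure D4:**
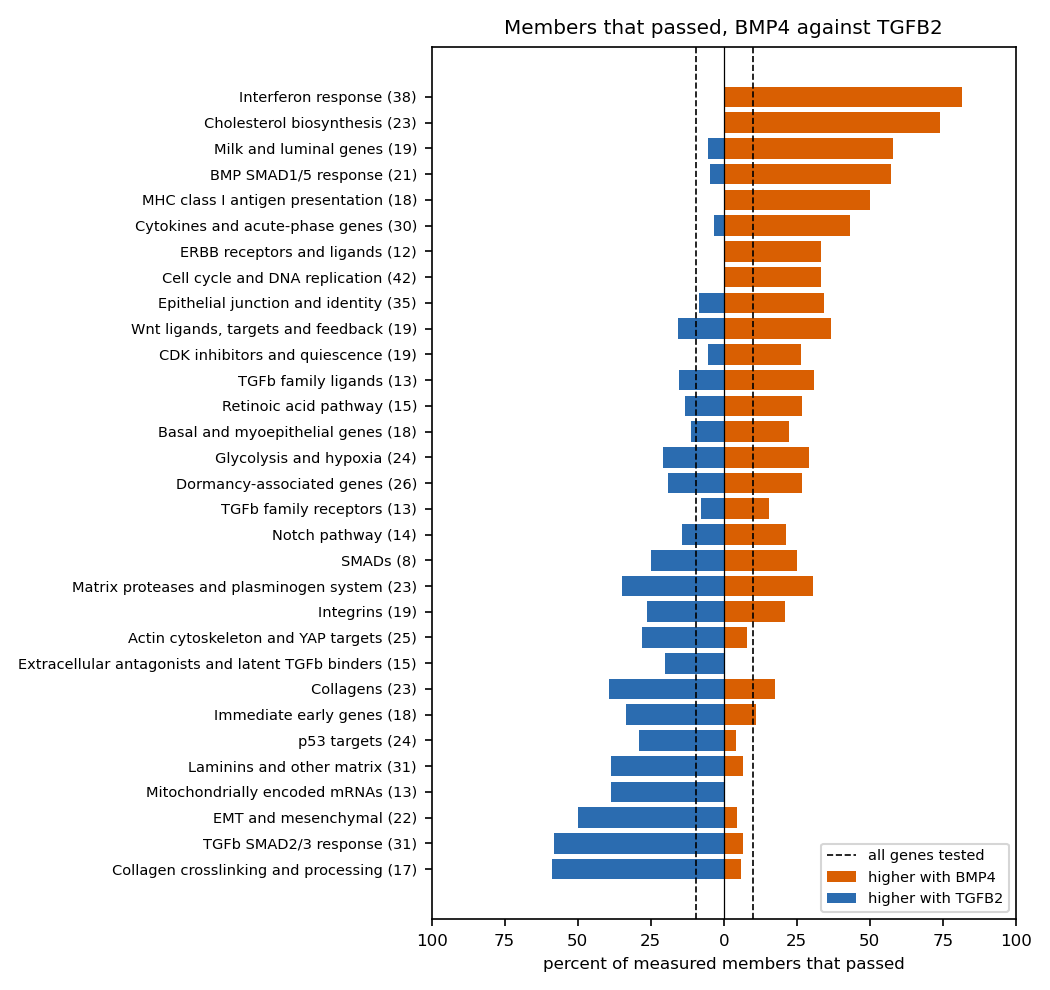
Percent of measured members that passed in each list, higher with BMP4 to the right (orange) and higher with TGFB2 to the left (blue), with the number of measured members in brackets; dashed lines mark the share of all genes tested, 10% and 9.54%. The longest bar to the right is the interferon list, 31 of 38, and the longest to the left collagen crosslinking and processing, 10 of 17.

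Mesenchymal and matrix genes that passed were more often higher with TGFB2 than with BMP4, while many did not pass. Of 22 measured genes of the EMT and mesenchymal list, 11 were higher with TGFB2 and 1 with BMP4, with a median of -0.93. The TGFB2 count was 1 without the replicate block, 7 without TGFB2 replicate 3 and 4 with all replicate 2 libraries left out. Vim, the intermediate filament vimentin, had 80.5, 118 and 420 CPM with TGFB2 and 11.3, 33.3 and 60.2 CPM with BMP4 (-2.50 ± 0.35, adjusted p = 0.000915). The lowest TGFB2 library was above the highest BMP4 library, but libraries of a group differed several-fold, and the call was lost without the block (adjusted p 0.112 to 0.143).

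The transcription factor Snai1 had 33.7, 41 and 48.1 CPM with TGFB2 and 22.4, 25.9 and 36.3 CPM with BMP4, so the groups overlapped, at -0.55 ± 0.09 in the paired test (adjusted p = 0.00302). The Snai1 call was lost without the block and with all replicate 2 libraries left out (adjusted p 0.0569 to 0.213). Fibronectin, Fn1, gave -1.14 ± 0.35 (adjusted p = 0.0456), which 12 of the alternatives lost, and the smooth muscle actin Acta2 gave -0.94, lost without the block. Both ligands raised Fn1 and Snai1 against NT. S100a4, a calcium-binding protein counted in the same list, went the other way (1.36), rising with BMP4 (0.76) and falling with TGFB2 (-0.60); its call too was lost without the block. The epithelial cadherin Cdh1 did not pass (0.22 ± 0.08, adjusted p = 0.0714).

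Levels of other cell types were low. Summed CPM of fibroblast markers ran from 7.86 to 22.8 with BMP4 and from 20.9 to 34.3 with TGFB2, and 3 of the 8 measured ones were higher with TGFB2, namely Col1a1, Col3a1 and Pdgfra. Of the others, Dcn reached 8.58 CPM and Col1a2 4.26 CPM in the 6 libraries. Without passing, Dcn (mean 4.59 CPM with BMP4 and 2.95 CPM with TGFB2) and Lum (0.765 and 0.565 CPM) had higher means with BMP4. Col1a2 (1.98 and 3.36 CPM) and Pdgfrb (0.66 and 2.77 CPM) had higher means with TGFB2, and Dpt was nearly level (1.11 and 1.14 CPM). Thy1 reached at most 0.183 CPM, and Fap was at 0 in 2 of the 6 libraries. Leukocyte markers summed to 7.27 to 9.86 CPM and 8.98 to 11.5 CPM. Among them Cd68 reached 8.09 CPM and Csf1r 5.53 CPM, and Cd3e was at 0 in 3 of the 6 libraries. Endothelial markers summed to 2.71 to 5 CPM and 3.98 to 6.23 CPM. Adipocyte markers gave 0.684 to 2.16 CPM and 1.78 to 2.45 CPM. Erythroid transcripts, mostly alpha globin, gave 4.41 to 13.6 CPM and 14.8 to 31.3 CPM. The part of other cells in the mesenchymal and matrix differences was not tested. In bulk samples fewer cells of a type and less RNA per cell cannot be told apart.

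Collagens divided by chain. Of 23 measured, 9 were higher with TGFB2 and 4 with BMP4, and without the block 5 and 3. The TGFB2 count was also 5 without TGFB2 replicate 3 and without BMP4 replicate 3. Col7a1, the anchoring fibril collagen, had 147, 175 and 249 CPM with TGFB2 and 11.4, 14.3 and 55.5 CPM with BMP4 (-3.04 ± 0.34). Col15a1 (-2.44) and Col8a1 (-2.31) were also higher with TGFB2, the latter with a call lost without the block, whereas Col6a1 and Col6a2 stood on the BMP4 side. Enzymes that modify and crosslink collagen were one-sided, with 10 of 17 measured higher with TGFB2 and 1 with BMP4. Without the block 5 were higher with TGFB2. The procollagen protease Bmp1 had 487, 519 and 504 CPM with TGFB2 and 159, 180 and 177 CPM with BMP4 (-1.55 ± 0.10), with tight libraries in each group. The lysyl hydroxylase Plod1 (-1.10) and the prolyl hydroxylase subunit P4ha2 (-1.04) followed, and the lysyl oxidase family member Loxl4 was higher with BMP4 (1.05 ± 0.10).

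Of 31 laminin and other matrix genes, 12 were higher with TGFB2 and 2 with BMP4. The TGFB2 count was 6 without the block and 7 without TGFB2 replicate 1. The microfibril gene Fbn1 gave -1.98 at no more than 4.77 CPM (lost in 2 of the alternatives), and Has2, Tnc and Ccn4 are given above. Integrins went both ways, 5 higher with TGFB2 and 4 with BMP4 among 19. Itga6, a laminin receptor of basal cells, had 302, 605 and 451 CPM with BMP4 and 140, 184 and 128 CPM with TGFB2 (1.55 ± 0.19), and Itga8 was also higher with BMP4 (1.66). Itgb5 was higher with TGFB2 (-0.97, lost in 1 alternative at an adjusted p of 0.0514), as was Itgb3. The integrin counts were 2 and 2 without the block, with 2 on the TGFB2 side without TGFB2 replicate 3 and 2 on the BMP4 side without TGFB2 replicate 1. Among 23 proteases and plasminogen system genes 8 were higher with TGFB2 and 7 with BMP4, and without the block 1 and 5. The TGFB2 count there was 5 without TGFB2 replicate 3 or BMP4 replicate 1. Cytoskeletal and YAP-related genes had 7 of 25 higher with TGFB2 and 2 higher with BMP4, against 3 and 0 without the block and 4 on the TGFB2 side without TGFB2 replicate 1 or 3. Examples were the LIM proteins Fhl2 (-2.30), Pdlim7 (-1.74) and Zyx (-0.77), of which Zyx shares exons with Epha1 at 33% of its CPM, and the actin bundler Fscn1 (-0.83), lost without the block.

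Some epithelial genes, and more of the secretory ones, were higher with BMP4. In the epithelial junction and identity list 12 of 35 measured members were higher with BMP4 and 3 with TGFB2, 20 did not pass, and without the block the counts were 7 and 0. Cldn1, a tight junction protein, had 128, 136 and 62.8 CPM with BMP4 and 15.6, 10.7 and 7.29 CPM with TGFB2 (3.28 ± 0.22), from 124 to 145 CPM in NT. Cldn8 (3.60 ± 0.37) and the grainyhead factor Grhl1 (3.49 ± 0.26) behaved alike, falling with TGFB2 and not passing with BMP4 against NT. Cldn4 moved the other way, at 2130, 860 and 1200 CPM with TGFB2 and 731, 277 and 412 CPM with BMP4 (-1.57 ± 0.11). Both ligands raised Cldn4, and its difference, clear within each replicate number, was lost without the block (adjusted p 0.0585 to 0.0909).

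Of 19 milk and luminal genes, 11 were higher with BMP4 and 1 with TGFB2, with a median of 1.15. Without the block the counts were 9 and 0. Elf5, the master regulator of alveolar secretory cells, had 77.3, 85 and 51.1 CPM with BMP4, 11.9, 17.2 and 10.8 CPM with TGFB2 and 160 to 249 CPM in NT (2.43 ± 0.15, adjusted p = 2.85e-05). The prolactin receptor Prlr had 123, 152 and 71.1 CPM with BMP4 and 21.6, 33.5 and 17.3 CPM with TGFB2 (2.24 ± 0.21). Most of these genes were lowered by TGFB2, 12 of 19 against NT, and 7 of 19 were lowered by BMP4. The casein Csn3 was an exception: it dropped from 116 to 217 CPM in NT to at most 2.75 CPM with either ligand, and the ligands did not differ past the threshold (1.15 ± 0.51, adjusted p = 0.148). Aldh1a3, a retinal dehydrogenase counted as luminal, was higher with TGFB2 (-1.62), a call lost in 8 of the alternatives. Basal genes gave 4 higher with BMP4 and 2 higher with TGFB2 of 18, beside 10% and 9.54% of genes tested. Krt15 and Itga6 were on the first side and Procr, a progenitor receptor (-1.92, lost in 2 of the alternatives), on the second.

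Interferon-stimulated genes passed on the BMP4 side alone. Of 38 measured, 31 were higher with BMP4 and 0 higher with TGFB2, with a median log2 fold change of 1.49. The count was 18 without the replicate block, 19 without TGFB2 replicate 1 and 18 with all replicate 2 libraries left out, with 0 on the TGFB2 side in all 3. Isg15, a ubiquitin-like antiviral protein, had 82.7, 34.7 and 45.2 CPM with BMP4, 14.8, 7.7 and 16 CPM with TGFB2 and 156, 101 and 75.3 CPM in NT (2.04 ± 0.31, adjusted p = 0.0016). The ligands did not overlap, while the highest BMP4 library lay inside the NT range. Both ligands went with lower levels than NT: 37 members fell with TGFB2 (19.2% of genes tested) and 34 with BMP4 (6.78%), and 0 rose with either. The guanylate-binding protein Gbp3 had 46.9, 29.5 and 29.3 CPM with BMP4 and 8.66, 7.53 and 6.79 CPM with TGFB2 (2.17 ± 0.23). Oas3 (1.79 ± 0.27) and Oasl1 (2.00 ± 0.27), of the antiviral oligoadenylate synthetase family, and the interferon regulator Irf7 (2.52 ± 0.33) were also higher with BMP4. Irf7 shares exons with Phrf1, whose CPM was 104% of its own, and members of the Gbp and Oas families have close relatives with which they may share reads.

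Promoters of this list were searched for a motif of its class. The list was made of known interferon-stimulated genes, so the share with the motif describes the list and not an effect of either ligand. The interferon-stimulated response element, searched as GAAA, any 2 bases and GAAA again, on both strands with overlapping matches counted, lay in the RefSeq windows of 16 of the 26 matched members (61.5%), beside 3.69% of tested genes and 3.99% of all 27025 genes with an entry. Isg15, Gbp3 and Oas3 are shown because they are the named members of the list whose windows hold it. The 200 bases before the gene start are printed 5′ to 3′ on the gene's strand in GRCm38.p6, with every base of a match in capitals. They lie at chr4:156200819-156201018 (minus) for Isg15, chr3:142559844-142560043 (plus) for the first of 2 entries of Gbp3, and chr5:120777660-120777859 (minus) for Oas3.
Isg15: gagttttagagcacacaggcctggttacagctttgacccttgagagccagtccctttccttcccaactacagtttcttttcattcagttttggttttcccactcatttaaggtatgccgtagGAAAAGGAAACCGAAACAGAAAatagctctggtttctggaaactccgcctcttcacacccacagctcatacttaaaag
Gbp3: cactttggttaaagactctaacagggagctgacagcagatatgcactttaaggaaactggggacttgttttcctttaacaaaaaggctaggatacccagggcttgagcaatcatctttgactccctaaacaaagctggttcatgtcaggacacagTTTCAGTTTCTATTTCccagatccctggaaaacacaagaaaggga
Oas3: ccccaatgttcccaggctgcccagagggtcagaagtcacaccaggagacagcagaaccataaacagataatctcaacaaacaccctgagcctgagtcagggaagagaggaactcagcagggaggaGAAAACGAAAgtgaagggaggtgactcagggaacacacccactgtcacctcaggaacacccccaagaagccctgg
In Isg15 there were 3 overlapping matches, beginning 78, 72 and 66 bases before the gene start, in Gbp3 2 matches at 45 and 39 bases, on the opposite strand, and in Oas3 1 match at 75 bases. The second Gbp3 entry held 0 matches. The matches describe the promoters and were not tied to binding in these cells.

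Antigen presentation and chemokine genes leaned the same way. Of 18 measured genes of MHC class I presentation, 9 were higher with BMP4 and 0 with TGFB2, but the count was 5 without the block, 2 without TGFB2 replicate 1 and 2 without BMP4 replicate 1. H2-T23, a non-classical class I gene, had 387, 181 and 144 CPM with BMP4 and 102, 98.1 and 76.6 CPM with TGFB2 (1.25 ± 0.22, lost without the block). The chaperone Tapbp (0.83, lost in 6 of the alternatives) shares exons with Zbtb22 at 13.3% of its CPM. Of 30 cytokine and acute-phase genes, 13 were higher with BMP4 and 1 with TGFB2, and without the block 6 and 1. The neutrophil chemokine Cxcl3 had 54.3, 53.2 and 68.9 CPM with BMP4 and 3.93, 10.5 and 3.88 CPM with TGFB2 (3.37 ± 0.33), with 89.6 to 113 CPM in NT. Ccl28, a mucosal chemokine, was at 33.2, 17.3 and 5.08 CPM with BMP4 and 2.53, 1.99 and 1.5 CPM with TGFB2 (2.99 ± 0.34), after a fall from 85.6 to 268 CPM in NT with both. Ccl20 (2.25) behaved alike, and Il23a was higher with TGFB2 (-0.87, lost in 1 alternative at an adjusted p of 0.0652).

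Cell cycle genes leaned towards BMP4 without a firm count. Against NT, 22 of the 42 measured fell with TGFB2 (19.2% of genes tested), and 0 rose or fell with BMP4. Between the ligands, 14 were higher with BMP4 and 0 with TGFB2. The count was 0 without the block, 2, 7 and 3 without TGFB2 replicate 1, 2 and 3, 2 and 3 without BMP4 replicate 1 and 2, and 34 with no filter on low counts. Mki67, the proliferation marker Ki-67, had 109, 227 and 242 CPM with BMP4, 18.1, 103 and 158 CPM with TGFB2 and 185 to 324 CPM in NT, and did not pass (1.42 ± 0.53, adjusted p = 0.0861). It passed in 4 of 22 alternatives. TGFB2 replicate 1 was the lowest library. Over the list, that library averaged -2.22 on the log2 scale relative to NT, beside -0.27 and -0.33 in the other 2 TGFB2 libraries and -0.47, 0.20 and 0.16 in the BMP4 libraries. The cyclin genes Ccne1 (0.70), Ccne2 (0.97) and Ccnd3 (0.51) and the replication factor Mcm7 (0.57) passed. Ccne2, Mcm7 and Ccnd3 share exons with Ints8, Cops6 and Bysl at 177%, 70.5% and 54.5% of their CPM, and all 4 calls were lost without the block.

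Of 19 CDK inhibitor and quiescence genes, 5 were higher with BMP4 and 1 with TGFB2, and 1 and 0 without the block. Without any one of the 6 libraries the BMP4 count was 1 to 3. Cdkn1a, the p21 inhibitor, measured 774, 548 and 476 CPM with TGFB2 and 512, 341 and 298 CPM with BMP4 (-0.65 ± 0.12, adjusted p = 0.00411, lost without the block), and both ligands raised it against NT. Cdkn1b, encoding p27, gave 0.37 ± 0.11 (adjusted p = 0.0419), a call lost in 15 of the alternatives. Cdkn2c, encoding p18, was higher with BMP4 (1.29 ± 0.21), lost in 1 alternative (adjusted p = 0.0801). Among 24 p53 target genes 7 were higher with TGFB2 and 1 with BMP4, and 1 and 0 without the block. The TGFB2 count was 3 or 4 without TGFB2 replicate 2 or 3 or any single BMP4 library. Examples were the p53 inducible genes Phlda3 (-0.51), Ccng1 (-0.46) and Bbc3 (-0.71), each with a call lost in some alternative.

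Genes tied to dormancy split, 7 higher with BMP4 and 5 higher with TGFB2 of 26, against 4 and 4 without the block. The BMP4 count was 3 or 4 without TGFB2 replicate 1 or 2 or BMP4 replicate 1 or 2, and the TGFB2 count was 2 or 3 without TGFB2 replicate 2 or BMP4 replicate 1 or 2. Mertk, a receptor of the TAM family, had 8.41, 9.27 and 4.55 CPM with BMP4 and 2.53, 2.02 and 1.3 CPM with TGFB2 (1.92 ± 0.19), below 11.5 to 35.7 CPM in NT in both. The p38 kinase gene Mapk14 was higher with BMP4 (0.64 ± 0.09), and Bhlhe40 and Bhlhe41 were higher with TGFB2. Nr2f1, an orphan nuclear receptor, had 2.14, 2.09 and 2.76 CPM with BMP4, 6.39, 5.39 and 5.27 CPM with TGFB2 and 4.56 to 6.77 CPM in NT (-1.29 ± 0.29, adjusted p = 0.0115). BMP4 lowered it (-1.37) and TGFB2 against NT did not pass (-0.07), though 5 of the alternatives lost the direct call and it shares exons with A830082K12Rik at 17% of its CPM. Sox9 did not pass (0.30 ± 0.14, adjusted p = 0.166).

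Some genes of other signalling pathways differed between the ligands. Of 19 Wnt genes, 7 were higher with BMP4 and 3 with TGFB2, and without the block 5 and 2. Wnt11 had 13.3, 10.9 and 19.1 CPM with BMP4 and 0.497, 0.802 and 1.08 CPM with TGFB2 (4.22 ± 0.33), from 0.142 to 0.57 CPM in NT. The Wnt-inactivating enzyme Notum stood at 870, 876 and 478 CPM with BMP4 and 68.9, 223 and 70.9 CPM with TGFB2 (2.78 ± 0.36), after a gain with BMP4 (2.14). Wnt9a was the reverse, at 44.3, 25.4 and 32.7 CPM with TGFB2 and 6.36 to 8.59 CPM with BMP4 (-2.09 ± 0.19), though both ligands raised it. Of 14 Notch genes, 3 were higher with BMP4 and 2 with TGFB2, beside 10% and 9.54% of genes tested, and without the block 2 and 1. The ligand Dll1 (1.53), the modifier Rfng (0.65) and Hey1 were higher with BMP4. The ligand Jag1 and the receptor Notch4 (-2.87) were higher with TGFB2, the Notch4 call lost without the block.

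Of 12 ERBB receptors and ligands, 4 were higher with BMP4 and 0 with TGFB2: the receptors Erbb2 (0.47) and Erbb3 (0.45), the ligand Nrg2 (2.24) and the feedback inhibitor Errfi1 (0.64). Errfi1 passed in every alternative, Erbb3 was lost in 12 of them, Erbb2 in 2 (adjusted p 0.065 to 0.0723) and Nrg2 in 1 (adjusted p = 0.137), and Erbb2 shares exons with Mien1 at 34.9%. Of 15 retinoic acid genes 4 were higher with BMP4, led by Cyp26b1, and 2 with TGFB2, beside 10% and 9.54% of genes tested. Without the block the counts were 2 and 0. The BMP4 count was 1 without TGFB2 replicate 1 or BMP4 replicate 1 and 2 without TGFB2 replicate 3, BMP4 replicate 2 or BMP4 replicate 3. Rarres1 (3.06) was at most 2.68 CPM, and the receptor Rarg (0.30) was lost in 14 of the alternatives. Immediate early genes had 6 of 18 higher with TGFB2 and 2 with BMP4, and without the block 3 and 0. The BMP4 count was 0 or 1 without any single BMP4 or TGFB2 library. Fosb (-1.43 ± 0.18) had 20.9, 17.2 and 25.1 CPM with TGFB2 and 6.95 to 9.3 CPM with BMP4, and Maff (-1.30), Egr2 (-2.94) and Junb (-0.57) were also higher with TGFB2. Junb lost its call in 4 alternatives (adjusted p 0.092 to 0.21), both fits without the block among them, and Maff (0.0779) and Egr2 (0.0621) in 1 each.

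Most cholesterol synthesis genes were higher with BMP4 in the paired test. Against NT, 20 of the 23 measured fell with TGFB2 (19.2% of genes tested) and 3 fell with BMP4 (6.78%), and 0 rose with either. Between the ligands, 17 passed on the BMP4 side and 0 on the TGFB2 side. The BMP4 count was 14 to 19 when single libraries were left out, 10 with all replicate 2 libraries left out and 0 without the block. Idi1, an isomerase of the mevalonate route, is an example. It had 81.8, 263 and 221 CPM with BMP4 and 18.1, 107 and 85.5 CPM with TGFB2, so the groups overlapped while each pair moved the same way (1.62 ± 0.18). The sterol demethylase Cyp51 (0.95) and squalene epoxidase Sqle (0.87) followed the same pattern, with replicate 1 the lowest library under both ligands and in NT. The sterol motif TCACNCCAC was found for 1 of 16 matched members (6.25%), beside 1.38% of 11043 tested genes with an entry. A count of 1 is too small to set these shares apart.

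Energy genes were mixed. Of 24 glycolysis and hypoxia genes, 7 were higher with BMP4 and 5 with TGFB2, and without the block 2 and 3. The prolyl hydroxylase Egln3 (1.15) and the kinase Pdk1 (0.76) were higher with BMP4, and the lactate exporter Slc16a3 (-1.97) and hexokinase Hk2 (-0.73) were higher with TGFB2. Egln3 lost its call in both fits without the block (adjusted p 0.176 to 0.212), and Pdk1 (0.0603) and Hk2 (0.0858) lost theirs with the 6 libraries alone and no block. Of 13 mitochondrially encoded mRNAs, 5 were higher with TGFB2 and 0 with BMP4, and 1 without the block. The TGFB2 count was 2 or 3 without TGFB2 replicate 2 or 3 or any single BMP4 library. Of these, mt-Nd2 passed in every alternative and had 1730, 1450 and 1120 CPM with TGFB2 and 749, 778 and 738 CPM with BMP4 (-0.89 ± 0.14).

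Averages over whole lists placed the 6 libraries in order. The BMP SMAD1/5 list averaged 1.82, 1.71 and 1.59 log2 units above the NT mean with BMP4 and 0.14, 0.60 and 0.44 with TGFB2. For the SMAD2/3 list the BMP4 libraries stood at 0.69, 0.59 and 0.96 and the TGFB2 libraries at 1.52, 1.29 and 1.84. The NT libraries spanned -0.34 to 0.28 and -0.24 to 0.17 in these lists, so TGFB2 replicate 1 lay inside the NT range of the BMP list. Interferon genes averaged -0.86, -1.58 and -1.51 with BMP4 and -2.77, -3.07 and -2.69 with TGFB2. In these 3 lists, and in the milk and luminal list, the ligands did not overlap. In the mesenchymal list the groups nearly met, with BMP4 replicate 3 at 1.27 and TGFB2 replicate 1 at 1.29, and in the cell cycle list they overlapped.

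**Figure D5:**
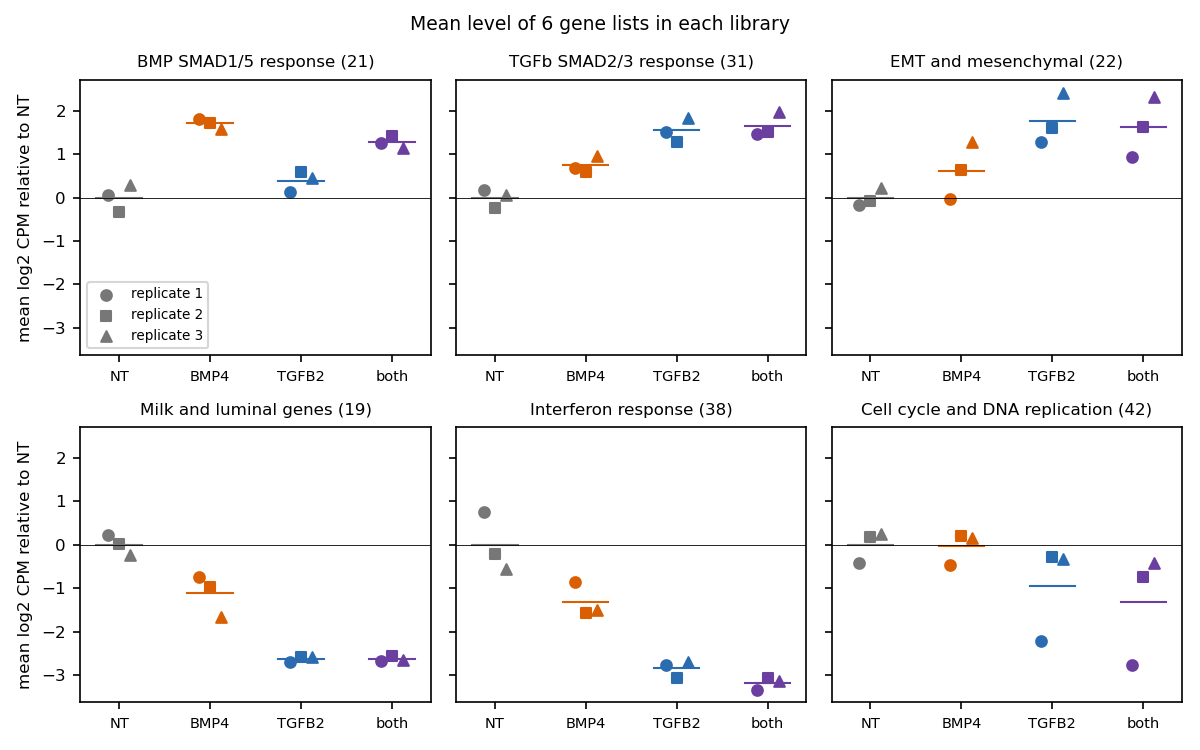
Mean log2 CPM of 6 gene lists in each of the 12 libraries, relative to the mean of the 3 NT libraries, with 1 shape per replicate number, a bar at each group mean and the number of genes in brackets; "both" marks cells given BMP4 and TGFB2 together. The BMP4 libraries lie highest in the BMP list (1.59 to 1.82) and between NT and TGFB2 in the milk and interferon lists, and in the cell cycle list replicate 1 is lowest with TGFB2 (-2.22) and with both ligands (-2.76).

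Cells given both ligands served as a reference for which side prevailed. Their mean level was closer to the TGFB2 mean than to the BMP4 mean for 92.8% of the 1537 genes higher with BMP4 and for 94.3% of the 1462 genes higher with TGFB2, beside 73.9% of all genes tested. The same held for 49 of the 51 genes moved in opposite directions. These shares are a description, since the means compared are those from which the genes were chosen. Adgra1, for instance, averaged 132 CPM with both ligands, near its TGFB2 level, and Abcc3 averaged 1.18 CPM. With both ligands, 789 of the 1537 and 652 of the 1462 genes lay outside the range of the 2 single-ligand means. So did 9542 of all genes tested. The BMP SMAD1/5 list averaged 1.25, 1.43 and 1.14 log2 units above the NT mean with both ligands. Those values were nearer its BMP4 libraries (1.59 to 1.82) than its TGFB2 libraries (0.14 to 0.60).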

How the data were processed

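The authors deposited estimated counts per gene from Salmon and a table of TPM, per the file headers, and Salmon 1.2.1, STAR 2.7.5b and bcl2fastq 2.17 are named with GRCm38.p6 in the submitters' processing notes. The deposited counts were rounded, since 82.9% were whole numbers; the total changed by 0.000361%. The sample sheet, per the file headers, lists 1 sequencing batch and unstranded libraries. Of 54347 genes, 15319 passed filterByExpr of edgeR 4.0.16 (R 4.3.3, minimum count 10). The quasi-likelihood test used all 12 libraries by group, with TMM factors and the replicate number as a block, and Benjamini-Hochberg adjustment over all genes. CPM and log2 CPM used TMM-scaled totals, and a prior count of 2 entered log2 CPM alone. Summed and highest CPM of cell type markers used plain library totals. The block was kept because same-numbered BMP4 and TGFB2 libraries departed together from their ligand means across genes (correlations 0.35, 0.15 and 0.34). Other pairs gave -0.32 to 0.0068. Departures from a mean cancel within a ligand, so positive same-number values by themselves push the other pairs down. The contrast with other pairs is therefore partly built in and is not separate evidence for pairing. Common biological variation was 0.196, with 6 residual degrees of freedom. No pair of libraries of a group agreed within sampling noise (lowest chi-square per degree of freedom 31.9).

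Named genes were the 12 largest differences per direction (mean log2 CPM of at least 2, groups separated), the 8 opposite movers per direction, up to 4 genes per list with the smallest p, and a fixed set, less a few that are not reported here. Members and lists were chosen with earlier results of these data known. The scripts were tested on simulated data. Positions are from GENCODE on GRCm38, found for 177 of 183 genes. Alternatives used DESeq2 1.42.0, limma 3.58.1 with voom, limma on log2(TPM + 1), other scalings and filters, and the 6 libraries alone. Each NT, BMP4 and TGFB2 library was also left out in turn, but no library with both ligands was left out singly.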

Additional observations from a re-analysis of the deposited data

How the results depend on the processing

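Without the replicate block, 1200 genes passed in place of 2999, with 638 higher with BMP4, 562 higher with TGFB2 and 14 moved in opposite directions. With the 6 libraries alone and no block, the counts were 838, 453 and 385. Limma on log2(TPM + 1) gave 2155 genes passed, 1019 of them higher with BMP4, and 24 opposite movers. Other settings gave more: DESeq2 3667 passed and 82 opposite, and limma with voom 3354 passed and 69 opposite. With no filter on low counts 3080 genes passed and 70 were opposite. Leaving out all replicate 1 libraries gave 26 opposite movers. With all replicate 2 libraries left out 1389 genes passed, 757 higher with BMP4, 632 higher with TGFB2 and 12 opposite. With all replicate 3 libraries left out the counts were 1344, 743, 601 and 23. These last 2 settings were chosen after seeing the data. Leaving out single NT, BMP4 or TGFB2 libraries gave 1706 to 3660 genes passed, with 22 to 45 opposite. Of those passed, 845 to 1868 were higher with BMP4 and 861 to 1792 higher with TGFB2. The cause of these changes was not tested, beyond the smaller number of libraries. Of 143 followed genes that passed, 82 passed in every alternative, and 0 reversed. Among followed genes that did not pass, Eng passed in 6 of 22 alternatives, Fst in 5, Mki67 in 4, Csn3 in 2 and Cdh1 in 1. Smad7 and Sox9 did not pass in any.

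Depth limited genes under about 1 CPM, such as Krt15 and Slc26a7 with TGFB2, where fold changes rest on few counts and their size is uncertain.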
